A study of Mus musculus with 27 samples.

Results

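The genes described here code for fibril-forming collagens and for proteins deposited with them by connective tissue cells: Col1a1, Col1a2, Col3a1, Col5a1, Col5a2, Fbln2, Postn, Dcn and Pdgfrl. They were picked by name, with earlier results of these data known, and their probe sets were found through the gene symbols of the array platform. The 9 genes have 18 probe sets of the 45101 on the array. For each gene the brightest probe set on average across all 27 arrays is used, and its other probe sets serve as a check. All 9 genes passed the filter on low values that left 13297 genes for testing, and so did 6 of their 9 other probe sets.

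Fibrillar collagens are secreted as procollagen chains that wind into triple helices, are trimmed outside the cell and assemble into cross-linked fibrils. Types I and III form the bulk of fibrils in loose connective tissue, and type V collagen is built into their core, where it helps to start a fibril and to limit its width. Fibroblasts and other mesenchymal cells are their main source in the embryo, and in the heart they come mostly from cushion mesenchyme and epicardium-derived fibroblasts.

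Promoter sequences are shown for Col1a2, Col3a1 and Postn, the 3 genes with a sequence at hand that rose by more than 4 on the log2 scale after day 5 in both arms. The sequences come from RefSeq on GRCm38.p6, are read 5' to 3' on the plus strand and cover the 250 bases before the annotated start. Of the 9 genes, 5 were matched in that table (Col1a2, Col3a1, Col5a1, Fbln2 and Postn, the last with 2 starts). The windows are chr6:4505368-4505617 for Col1a2, chr1:45311288-45311537 for Col3a1 and chr3:54360857-54361106 for the second start of Postn. Capitals mark matches, on either strand, to CCAAT, to the TATA box letters TATAAA, to the GC box letters GGGCGG, and to AACAAT, the core letters read by Sox proteins.
Col1a2: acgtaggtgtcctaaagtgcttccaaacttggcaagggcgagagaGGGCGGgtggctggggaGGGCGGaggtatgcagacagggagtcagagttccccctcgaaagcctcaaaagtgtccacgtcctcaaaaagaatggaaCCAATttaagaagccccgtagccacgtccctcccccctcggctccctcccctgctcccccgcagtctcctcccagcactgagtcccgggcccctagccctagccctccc
Col3a1: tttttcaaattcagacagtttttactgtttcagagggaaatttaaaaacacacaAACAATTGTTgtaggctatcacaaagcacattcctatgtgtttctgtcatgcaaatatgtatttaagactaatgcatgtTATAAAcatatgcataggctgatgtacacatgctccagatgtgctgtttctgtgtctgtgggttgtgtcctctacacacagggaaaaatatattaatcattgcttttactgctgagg
Postn: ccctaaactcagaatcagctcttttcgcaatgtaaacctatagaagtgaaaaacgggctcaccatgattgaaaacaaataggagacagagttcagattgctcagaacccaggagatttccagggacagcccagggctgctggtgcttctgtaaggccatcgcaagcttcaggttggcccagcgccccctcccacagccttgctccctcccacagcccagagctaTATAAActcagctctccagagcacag
The Col1a2 window holds CCAAT at 109 bases before the start and GGGCGG at 188 and 205 bases. In the Col3a1 window AACAAT occurs on both strands in a pair of overlapping matches, 196 and 192 bases before the start, and TATAAA lies 117 bases before it. The Postn window has TATAAA at 26 bases before the start, while AACAAT stands in the window of its other start, at 165 bases. Such short motifs are common: of 32851 promoter windows of this length, 33.8% held CCAAT, 12.4% TATAAA, 9.42% AACAAT and 32.7% GGGCGG. A match describes letters only.

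The cells were mouse embryonic stem cells of the AB2.2 line, all carrying a lentivirus with enhanced green fluorescent protein, for which they were sorted. In the Sox17 shRNA arm the virus also expressed a short hairpin RNA (shRNA) against Sox17, a transcription factor of endoderm, and in the control arm an shRNA against firefly luciferase, which mouse cells lack. Both were grown as embryoid bodies from hanging drops, plated between days 4 and 5, and profiled on 7 days, from day 0 through day 2, day 4 and day 5 to day 6, day 8 and day 10. The labels call the 2 arrays of a group biological replicates without naming separate transductions, so p-values measure the spread between these cultures. The Sox17 shRNA group of day 0 has 1 array. Each level is a mean over all the cell types present in a culture. The question behind the design is which genes depend on Sox17.

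Values are log2 expression levels made by the authors with RMA, and the number of arrays limits the precision. Array medians lay between 5.50 and 5.56. The bioB hybridisation control read 9.03 to 9.52 on 9 arrays (days 0 and 2, and replicate 1 of day 4, in both arms) and 6.34 to 7.81 on the other 18, so every comparison of day 5 with day 2 coincides with that shift. The 3' minus 5' difference of the actin control, a sign of RNA integrity, was 0.33 to 0.86 and was highest for Sox17 shRNA cultures at days 4 and 6, in replicate 2. Summed over 10 genes of the pluripotent list, the log2 level was 15.26 on the Sox17 shRNA array of day 0 and 15.50 to 15.51 on the control arrays, and it had dropped to 12.06 to 12.24 and 11.96 to 12.03 at day 10. Sox17 itself read 5.53 and 9.39 on the Sox17 shRNA arrays of day 4 against 10.30 and 10.66 on the control arrays, and 6.71 and 7.19 at day 10 against 9.99 and 9.98. On average over days 4 to 10 its log2 difference was -2.00 (SE 0.36, adjusted p = 0.000363 in limma, 10 arrays in each arm). On single days Sox17 passed the limma test at days 4 and 10 only. At day 5 the Sox17 shRNA arrays read 7.77 and 10.08, against 10.38 on both control arrays. At day 8 they read 7.90 and 8.54, against 9.91 and 10.29. The log2 differences of -1.45 (day 5) and -1.88 (day 8) missed the test. At day 6 the arms overlapped, with 8.60 and 9.39 in Sox17 shRNA cultures and 9.83 and 9.35 in controls.

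The first comparison asks whether the matrix genes differ between Sox17 shRNA and control cultures. They did, and every day's call among the 9 had the same direction: 8 of the 9 genes were higher in Sox17 shRNA cultures on average over days 4, 5, 6, 8 and 10. The median of the 9 average differences was 0.78 on the log2 scale, against 0.01 over all genes, and 14.8% of all genes tested passed in that direction. The 9 genes were chosen with earlier results of these data known, so setting them against all genes describes them and is no test. Pdgfrl had the highest average (1.48, SE 0.08), followed by Col1a1 (1.20, SE 0.11) and Fbln2 (1.11, SE 0.08). Col1a2 (0.88), Col5a1 (0.78), Col3a1 (0.61), Dcn (0.51) and Col5a2 (0.47) followed, with limma adjusted p-values from 3.56e-05 to 0.00427 for these 5. Postn averaged 0.49 (SE 0.24) and missed the test (adjusted p = 0.143). Without the 2 Sox17 shRNA arrays with the highest actin 3' minus 5' difference, a choice made after seeing the data, the same 8 genes passed, and Col3a1 averaged 0.39 and Postn 0.26 (adjusted p = 0.0559). In bulk cultures, more cells that make matrix and more of its RNA per cell cannot be told apart. The average treats arrays of different days as independent, so its errors would be too small if a culture's deviation lasted over days.

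The calls were counted for each day. At day 0 no gene of the 9 was called in either direction, with 1.89% of all genes called, and at day 2 again none, with 2.54%. At day 4 the call was of Pdgfrl only (3.33% of all genes were called higher). At day 5 Col1a1, Col5a1, Fbln2 and Pdgfrl passed (6.15%), at day 6 Col1a1, Fbln2 and Pdgfrl (2.84%). At day 8 the 6 genes called were Col1a1, Col1a2, Col5a1, Col5a2, Fbln2 and Pdgfrl (1.89%), and at day 10 Dcn joined them for 7 (5.62%). Fits that left out 1 array of the day called 2 to 3 of the 9 genes at day 5, 3 to 6 at day 6, 3 to 4 at day 8 and 7 at day 10. The median difference of the 9 genes was -0.14 at day 0, -0.03 at day 2 and 0.07 at day 4. It was 0.66 a day later and 0.77 at day 6, and grew to 0.94 on day 8 and 1.39 on day 10, while the median over all genes stayed between -0.01 and 0.03.

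The arms separated fully by day 8. At days 8 and 10 both Sox17 shRNA arrays lay above both control arrays for 9 of the 9 genes, where 24.4% and 33.7% of all genes did so. At day 6 this held for 5 genes (27% of all), at day 5 for 5 genes (27.7%), at day 4 for Pdgfrl (18.6%) and at day 2 for Postn (24.9%). The opposite order, with both Sox17 shRNA arrays lower, was found at day 5 for Postn and Dcn (24.6% of all genes), at day 4 for Fbln2 (14.7%) and at day 2 for Col3a1, Col5a1 and Col5a2 (23.6%).

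**Figure D1:**
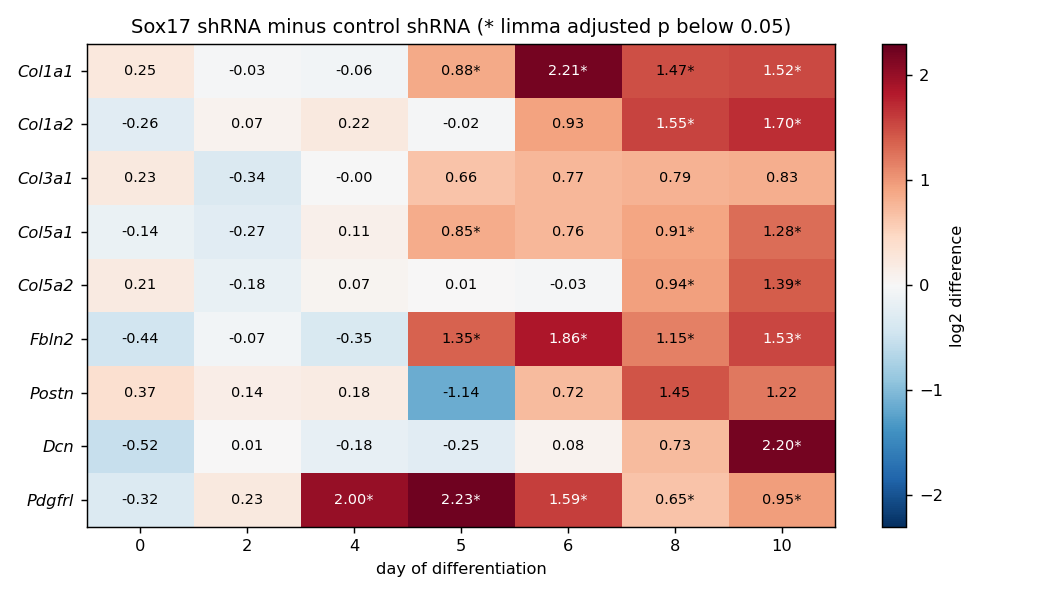
Log2 difference of Sox17 shRNA minus control cultures for each gene (rows) and day of differentiation (columns), from 2 arrays per group except 1 Sox17 shRNA array at day 0, with an asterisk where the limma adjusted p is below 0.05. Day 0 and day 2 carry no asterisk, and day 10 carries 7, from 0.95 for Pdgfrl to 2.20 for Dcn.

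Type I collagen, the most abundant fibril protein of bone, skin and tendon, is made of the chains coded by Col1a1 and Col1a2. Col1a1 lay between 4.13 and 4.53 on the 7 arrays of days 0 and 2, below the median of all probe sets. At day 5 it read 4.61 and 5.51 in Sox17 shRNA cultures and 4.20 and 4.16 in controls. At day 6 the values were 8.69 and 8.51 against 6.46 and 6.33, a difference of 2.21 (SE 0.25, 4.61-fold, limma adjusted p = 2.41e-05), at place 2 among the 13297 genes ranked from the highest. Both arms were above their early levels by then, without overlap between them. By day 8 the levels were 10.72 and 11.33 against 9.42 and 9.68, and by day 10 they were 12.54 and 12.56 against 11.09 and 10.98 (difference 1.52, 2.86-fold, adjusted p = 0.000609). The day 5 call of Col1a1 (0.88, adjusted p = 0.0364) was lost in 3 of the 4 fits that left out an array of that day, and without replicate 2 of Sox17 shRNA the difference was 0.43 (adjusted p = 0.32). The second Col1a1 probe set rose less and separated the arms less: at day 10 it read 7.54 and 7.78 in Sox17 shRNA cultures and 7.39 and 7.13 in controls, a difference of 0.39 that missed the test (adjusted p = 0.3), while at day 6 its difference of 1.10 passed (adjusted p = 0.00151).

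The Col1a2 probe set used read 6.61 to 7.07 on days 0 and 2, above the median of all values. At day 5 it read 6.61 and 6.33 in Sox17 shRNA cultures and 6.61 and 6.37 in controls. At day 8 it read 11.34 and 10.32 against 9.23 and 9.33, and at day 10 it read 12.68 and 11.73 against 10.54 and 10.46. The Sox17 shRNA replicates differed by about 1 log2 unit on both days, and still lay above both controls. The difference at day 10 was 1.70 (SE 0.28, 3.25-fold, adjusted p = 0.000599), and the call at day 8 (1.55) is lost without replicate 1 of the Sox17 shRNA arm (1.04, adjusted p = 0.058). A second probe set was under the median of all values through day 5 and read 11.86 and 10.90 against 9.48 and 9.46 at day 10, and another one stayed under the median of all values on all 27 arrays.

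Col3a1, the sole chain of type III collagen, which is typical of young and distensible tissue, showed the steepest climb of all. It read 3.67 to 4.27 at days 0 and 2, and at day 10 it read 13.57 and 13.42 in Sox17 shRNA cultures and 12.68 and 12.65 in controls. Between them lay a sharp step at day 6, to 8.51 and 10.15 with Sox17 shRNA and 8.30 and 8.82 in controls, where the arms overlapped. At days 8 (12.92 and 12.89 against 12 and 12.23) and 10 the Sox17 shRNA arrays were higher without overlap. Neither day's difference passed the test (0.79, adjusted p = 0.228; 0.83, SE 0.33, adjusted p = 0.133), and the second probe set passed at day 10 (1.17, adjusted p = 0.0283).

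Type V collagen is made mainly of chains from Col5a1 and Col5a2. Col5a1 was above the median of all values on all 27 arrays. At day 5 it read 7.99 and 8.23 in Sox17 shRNA cultures against 7.26 and 7.26 in controls (difference 0.85, adjusted p = 0.038). At day 10 it read 11.01 and 11.22 against 9.80 and 9.87 (1.28, SE 0.25, adjusted p = 0.00221). Its day 5 and day 8 calls did not hold in any fit that left out an array of those days, with adjusted p-values of 0.0684 to 0.234. Both further Col5a1 probe sets also passed at day 5 (1.52, adjusted p = 0.000915, and 0.78, adjusted p = 0.0366). Col5a2 moved later. It read 4.89 to 5.59 at days 0 and 2, and 5.77 and 6.75 against 6.14 and 6.44 at day 6, where the arms overlapped. The arms were apart at day 8, with 9.34 and 9.13 against 8.18 and 8.41 (0.94, adjusted p = 0.022, passed in 1 of 4 fits without 1 array), and at day 10, with 10.89 and 10.46 against 9.31 and 9.27 (1.39, SE 0.23, 2.62-fold, adjusted p = 0.000636).

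Decorin (Dcn), a small proteoglycan that coats collagen fibrils and tunes their spacing, was the latest to appear. Until day 6 its values lay between 5.27 and 6.38 in both arms. At day 8 it read 7.37 and 8.28 in Sox17 shRNA cultures and 6.93 and 7.25 in controls (0.73, adjusted p = 0.113). At day 10 the values were 10.90 and 10.47 against 8.56 and 8.42, the widest day 10 difference of the 9 genes (2.20, SE 0.25, 4.59-fold, adjusted p = 1.05e-05). A second Dcn probe set was under the median of all values on every array and gave 0.14 at day 10 (adjusted p = 0.653).

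Periostin (Postn), a matricellular protein of valves, periosteum and healing tissue that binds collagen, ran in the opposite order at day 5. It read 5.17 and 5.20 in Sox17 shRNA cultures, its level of day 2, and 6.51 and 6.16 in controls, a difference of -1.14 that missed the test (SE 0.53, adjusted p = 0.205). At day 6 the Sox17 shRNA replicates were 7.92 and 10.78, on either side of the controls at 8.18 and 9.08. At day 8 the order had turned, with 12.49 and 12.55 against 10.94 and 11.19, and it stayed so at day 10, with 12.94 and 12.75 against 11.63 and 11.62 (1.22, SE 0.53, adjusted p = 0.175). The gap of 2.86 between the replicates at day 6 was the largest between replicates of any of the 9 genes, and it enters the error of every Postn test. Without replicate 1 of that group the day 6 difference is 2.15 (adjusted p = 0.000147), and without replicate 2 it is -0.71. The average over days 4 to 10 is 0.77 without replicate 1. That fit keeps replicate 2 of day 6, whose actin 3' minus 5' difference of 0.75 was among the highest of all arrays. The average without that array and replicate 2 of day 4 is the lower one given above. Averaged over days 6, 8 and 10, a choice made after seeing the data, all 9 genes passed (11.3% of all genes did so in that direction), Postn with 1.13 (adjusted p = 0.0115).

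Fibulin-2 (Fbln2), a glycoprotein that links fibronectin, elastic fibres and proteoglycans, separated the arms from day 5 on. It read 5.86 and 6.06 in Sox17 shRNA cultures at day 4, below 6.35 and 6.28 in controls. A day later it read 6.83 and 7.69 against 5.82 and 6.00 (1.35, SE 0.19, adjusted p = 0.000294), and at day 6 it read 7.81 and 7.69 against 5.81 and 5.97 (1.86, 3.63-fold, adjusted p = 5.38e-06). At day 8 it read 7.55 and 7.62 against 6.45 and 6.42, still apart (1.15, adjusted p = 0.00068). At day 10 the levels were 8.60 and 8.53 against 7.03 and 7.04 (1.53, adjusted p = 2.38e-05). The calls of days 5, 6, 8 and 10 passed in each fit that left out an array of their day. The other Fbln2 probe set was under the median of all values on every array.

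Pdgfrl, which codes for a secreted protein resembling the ligand-binding part of Pdgf receptors and lacking their kinase, had a course of its own. It read 5.43 to 6.22 at days 0 and 2. At day 4, still in suspended embryoid bodies, it read 8.41 and 8.77 in Sox17 shRNA cultures and 6.67 and 6.51 in controls (2.00, SE 0.17, 4.00-fold, adjusted p = 4.91e-06). The 2 replicate pairs of that day stand on either side of the shift in hybridisation signal, and the difference was 1.74 within the first and 2.26 within the second. At day 5 it read 8.35 and 8.10 against 6.00 and 5.99 (2.23, 4.69-fold, adjusted p = 8.55e-07). Later values of Pdgfrl with Sox17 shRNA were below those of day 5, at 6.91 and 6.86 on day 6 (against 5.24 and 5.35), 6.73 and 6.65 on day 8 (against 5.88 and 6.19) and 7.12 and 7.33 on day 10 (against 6.26 and 6.28). They were lowest at day 8, and both day 10 arrays lay above those of days 6 and 8. The arms did not overlap on any day from day 4 on, and the day 8 call (0.65, adjusted p = 0.0294) is lost in 3 of 4 fits without 1 array.

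**Figure D2:**
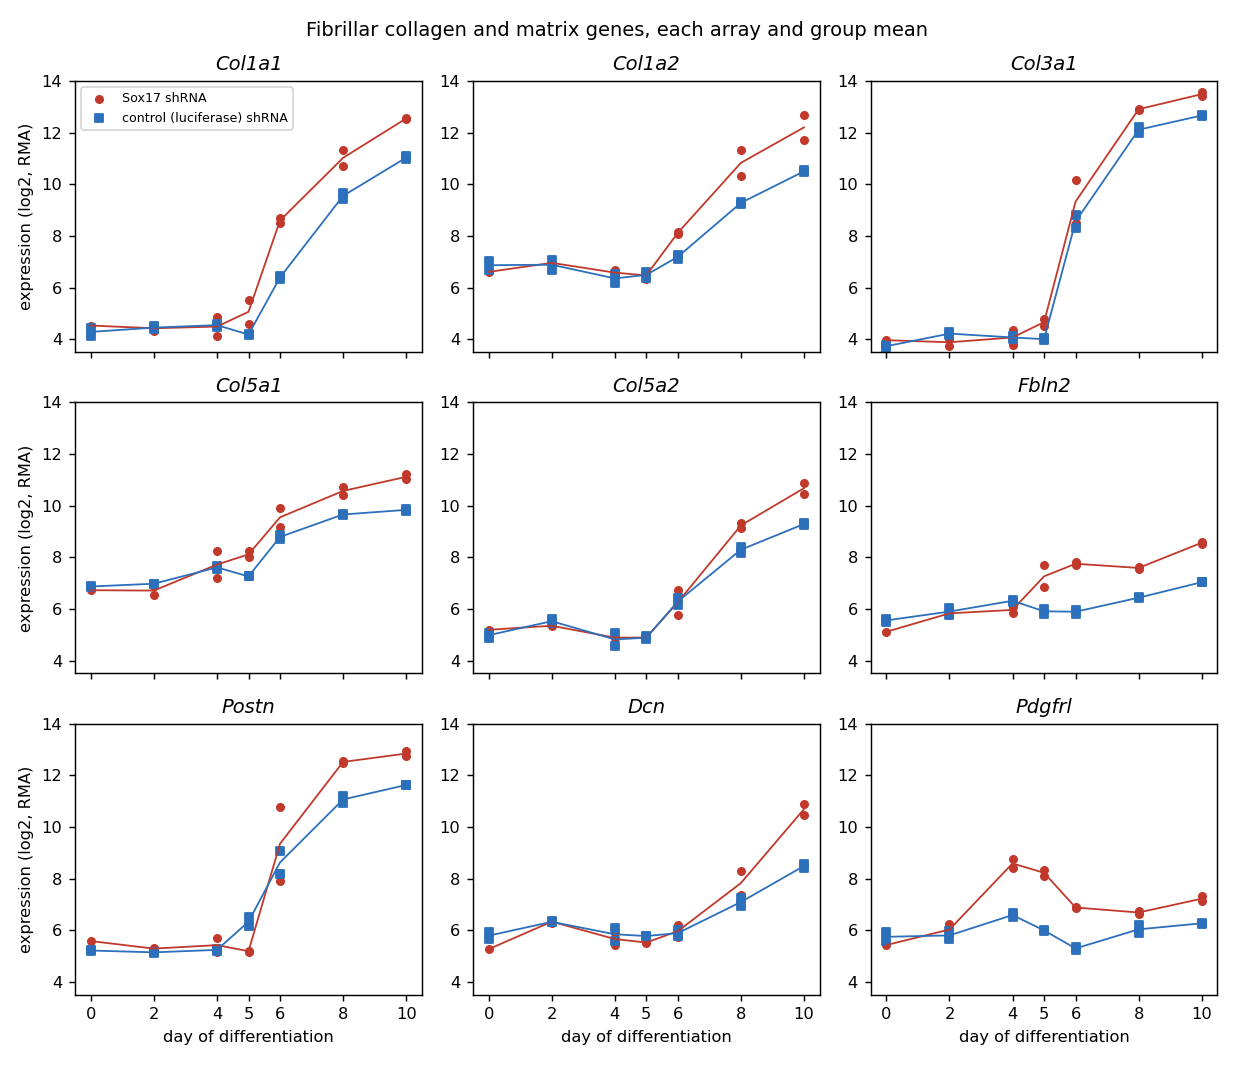
Log2 expression (RMA) of the 9 genes against day of differentiation, 1 panel per gene, with each array as a point (Sox17 shRNA in red circles, control in blue squares) and lines through group means. The panels of Col1a1, Col1a2, Col3a1, Col5a2 and Dcn stay near their early levels until day 5 and then rise in both arms, with Sox17 shRNA above at days 8 and 10, while Pdgfrl peaks at day 4 with Sox17 shRNA (8.41 and 8.77).

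The second comparison asks when the genes rise within each arm. From day 2 to day 5, Sox17 shRNA cultures raised Col1a1 (0.64), Col5a1 (1.40), Fbln2 (1.43) and Pdgfrl (2.20), where 19.6% of all genes rose, and Dcn fell by 0.81 (27.6% of all genes fell). In the control arm none of the 9 rose over these days and Col5a2 fell by 0.64 (30.1% of all genes fell). That fall passed in 0 of 4 fits that left out an array (adjusted p from 0.0619 to 0.127), and the second Col5a2 probe set gave -0.20 (adjusted p = 0.536). With a term for the hybridisation signal, 2 of the 5 calls with Sox17 shRNA (Fbln2 and Pdgfrl) passed and none in the control arm. Only the groups of day 4 hold arrays of both signal levels, so that term rests on them. Among them is the array with the highest actin 3' minus 5' difference (0.86), so these counts cannot separate the shift from the change over days. Postn changed by -0.10 with Sox17 shRNA and by 1.19 in the control arm (adjusted p = 0.89 and 0.0674).

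From day 5 to day 10, in plated culture, 8 of the 9 genes rose in the Sox17 shRNA arm (23.8% of all genes rose) and the same 8 rose in the control arm (22.9%). The steepest was Col3a1, with 8.83 on the log2 scale with Sox17 shRNA and 8.66 in controls (SE 0.33 each), the largest rise of all 13297 genes in either arm. Postn followed with 7.66 and 5.30, Col1a1 with 7.49 and 6.85, Col5a2 with 5.78 and 4.40, Col1a2 with 5.73 and 4.01, Dcn with 5.17 and 2.71, Col5a1 with 3.0 and 2.58, and Fbln2 with 1.30 and 1.13. In the Sox17 shRNA arm the 3 largest rises of all genes were those of Col3a1, Postn and Col1a1. RMA levels of a silent gene flatten near the background of its probes, so rises that start from it are understated. Pdgfrl fell by 1.0 with Sox17 shRNA (adjusted p = 9.76e-05, 21.6% of all genes fell) and changed by 0.27 in controls (adjusted p = 0.195).

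Steps between sampled days, which are 1 or 2 days apart, show different timing. From day 5 to day 6 the mean of Col3a1 moved by 4.67 with Sox17 shRNA and 4.56 in controls, Postn by 4.16 and 2.3, and Col1a1 by 3.54 and 2.21. From day 8 to day 10 the step of Dcn was 2.86 with Sox17 shRNA and 1.40 in controls, while those of Col3a1 were 0.58 and 0.55. By the probe sets used, Dcn thus had its largest step last, and Col3a1 its largest step first. The second Col3a1 probe set had its largest step from day 6 to day 8 in both arms. Its means at days 5, 6, 8 and 10 were 3.26, 5.87, 10.40 and 11.40 with Sox17 shRNA. In controls they were 3.22, 5.06, 9.33 and 10.22. Taking as onset the first day on which both arrays of a group lay at least 1 log2 unit above every array of days 0 and 2, Col1a2 began at day 6 with Sox17 shRNA and at day 8 in controls, and Col5a1 at day 5 and day 6. Col1a1, Col3a1, Postn (day 6), Col5a2 (day 8) and Dcn (day 10) had the same onset day in both arms. By their other probe sets, Col1a1 began at day 6 with Sox17 shRNA and at day 8 in controls, and 1 of the 2 for Col5a1 began at day 6 in both arms. Fbln2 met this mark at day 6 and Pdgfrl at day 4 with Sox17 shRNA, and neither did on any day in controls. Set against a later control, the Sox17 shRNA cultures of day 8 were already above the controls of day 10 in both arrays for Col3a1, Col5a1, Fbln2, Postn and Pdgfrl (26.5% of all genes), below them for Dcn (28.5%), and overlapping for the other 3.

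**Figure D3:**
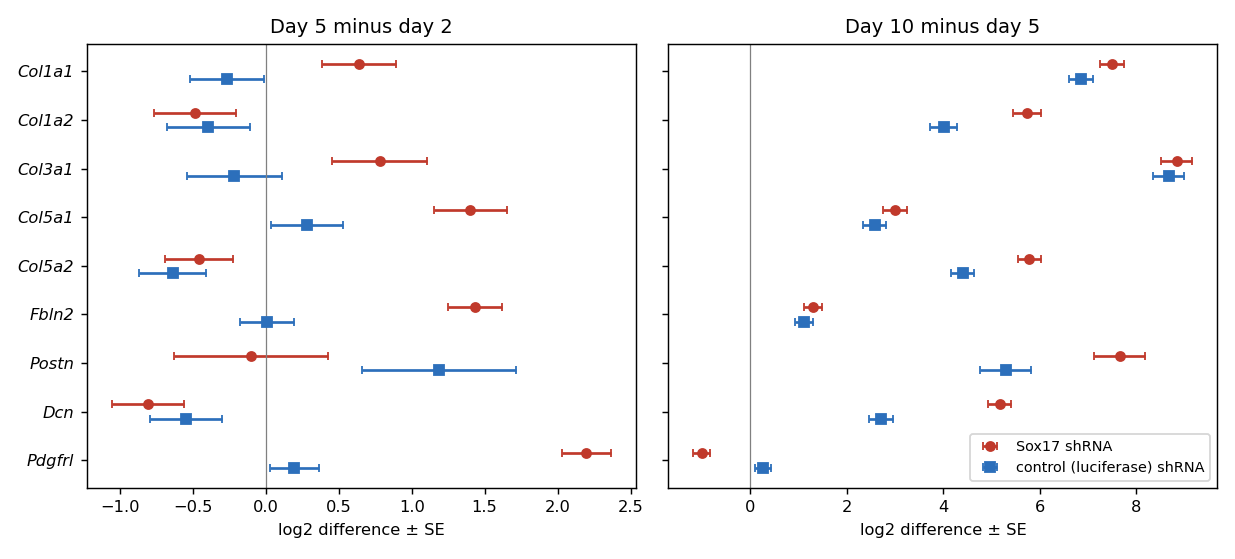
Change from day 2 to day 5 (left) and from day 5 to day 10 (right) of each gene in Sox17 shRNA (red circles) and control cultures (blue squares), on the log2 scale with the SE of the limma fit (2 arrays per group). Rises after day 5 exceed 2.5 in both arms for Col1a1, Col1a2, Col3a1, Col5a1, Col5a2, Postn and Dcn, and Pdgfrl is below 0 with Sox17 shRNA at -1.0.

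Whether the difference between the arms itself changed was tested as an interaction. Between days 5 and 10 it grew for Dcn by 2.45 (SE 0.35, adjusted p = 0.000407), for Col1a2 by 1.72 (SE 0.40, adjusted p = 0.0175) and for Col5a2 by 1.38 (SE 0.33, adjusted p = 0.0201), and it shrank for Pdgfrl (-1.28, SE 0.24, adjusted p = 0.00393). These 4 of the 9 genes compare with 4.53% of all genes. The change was 2.36 for Postn (SE 0.74, adjusted p = 0.0834), and 0.17 for Col3a1 and 0.18 for Fbln2, each with an adjusted p above 0.8. By second probe sets the change was 1.13 for Col3a1 (adjusted p = 0.246), 1.70 for Col1a2 (adjusted p = 0.0563) and 1.53 for Col5a2 (adjusted p = 0.0186). A moderated F test over the differences of days 4, 5, 6, 8 and 10 passed for 6 genes, Col1a1, Col1a2, Col5a2, Fbln2, Dcn and Pdgfrl (4.84% of all genes passed). The second probe sets of Col1a1 and Col1a2 missed this F test (adjusted p = 0.0554 and 0.0535), and that of Col5a2 passed (adjusted p = 0.0218). The growth of Col1a2 passed in 4 of 8 fits that left out an array and that of Col5a2 in 2 of 8, with adjusted p-values up to 0.102 and 0.106.

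The 9 genes also differ in how alike their courses are. Over the 14 group means, the Pearson correlation of a gene with the mean of the other 8 standardized genes was 0.97 for Col1a1, 0.96 for Col5a1, 0.95 for Col1a2, 0.94 for Col5a2, 0.93 for Col3a1 and for Postn, 0.86 for Dcn, 0.84 for Fbln2 and 0.14 for Pdgfrl. Among gene pairs, Col3a1 with Postn (0.99) and Col1a2 with Col5a2 (0.99) were closest. The points share arrays and the same steep rise with time, so these values describe shape and carry no p. Outside the 9, the genes whose group means were most like the mean of the 9 were Tram1l1 (0.99), a relative of a translocon protein, and Ccn4 (0.99), a secreted matricellular protein induced by Wnt signals, followed by Syde1, Samd14, Osbpl5, Rcn3, Gm266, Lipa, Zfp469 and Nfia (0.98 each). Ccn4 read 9.69 and 10.24 in Sox17 shRNA cultures at day 10 and 8.54 and 8.60 in controls (1.40, SE 0.31, adjusted p = 0.00604).

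Other matrix genes, taken from lists of pathway members, moved in both directions. For the counts that follow, 14.8% of all genes were higher and 12.2% lower on average over days 4 to 10, and 5.62% higher and 4.38% lower at day 10. Of the other fibrillar collagens, 4 were tested and none was higher on average over days 4 to 10, with a median of -0.10. Col2a1, the collagen of cartilage and notochord, was lower (-0.91, SE 0.11). It read 7.35 and 7.98 in Sox17 shRNA cultures at day 10 and 9.38 and 9.38 in controls. Of 10 other connective tissue collagens, 4 were higher and 1 lower on average, with a median of 0.07. At day 10 the counts were 6 and 1, with a median of 0.81. Col14a1, a collagen on fibril surfaces, stood furthest out at day 10, with 9.41 and 8.58 against 5.89 and 6.13 (2.99, SE 0.29, adjusted p = 1.55e-06). Col8a2, a network collagen, read 7.42 and 7.60 against 4.88 and 4.96 (2.59, adjusted p = 4.61e-09), and Col6a3 differed by 1.66. Col26a1 was lower by the same measure (-1.73).

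Genes that make and cross-link collagen moved in both directions. Of 23 tested, 9 were higher and 3 lower on average over days 4 to 10, with a median of 0.21. The 3 lower ones were Plod2 (-1.21), which hydroxylates lysines of the chain ends, P4ha1 (-0.91), a prolyl hydroxylase needed for a stable triple helix, and P4ha2 (-0.72), named here after its value was seen. Plod2 read 9.99 and 10.15 in Sox17 shRNA cultures at day 10, against 11.74 and 11.55 in controls. At day 10, 10 of the 23 were higher and 2 lower. Pcolce, an enhancer of procollagen trimming, read 12.02 and 11.90 against 10.75 and 10.72 at day 10 (1.22, adjusted p = 0.00125), and Loxl1, a cross-linking oxidase, read 10.17 and 10.65 against 8.86 and 8.85 (1.55, adjusted p = 0.00077).

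Among 24 elastic fibre, proteoglycan and matricellular genes, 7 were higher and 3 lower on average, with a median of 0.08. Fmod, a fibril proteoglycan akin to decorin, read 9.25 and 7.65 against 6.09 and 6.08 at day 10 (2.36, adjusted p = 0.000472), and Tnc and Tgfbi averaged 0.57 and 0.50 over days 4 to 10. Sparc, a collagen-binding protein that parietal endoderm also makes in quantity, was lower on average (-0.67). Of 12 proteases and inhibitors 6 were higher and none lower, with a median of 0.28. Mmp2, a gelatinase, was higher on each day from day 4 on without overlap, with 11.41 and 11.21 against 10.07 and 10.13 at day 10 (1.21, adjusted p = 0.000138), and Mmp9 averaged 0.94, Timp3 0.56 and Timp1 0.46.

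The list of collagen and matrix receptors also holds Pdgfra and Pdgfrb, which are receptors for Pdgf. Of its 12 genes tested, 4 were higher on average (Pdgfrb 0.80, Cd44 0.72, Itgb1 0.55 and Itgb3 0.39, the last named after its value was seen). Pdgfra, a receptor of early mesoderm and mesenchyme, was lower (-0.88, SE 0.19, adjusted p = 0.00188), with 9.11 and 9.03 in Sox17 shRNA cultures at day 5 against 10.12 and 10.12 in controls. At day 10, 3 of the 12 genes were higher and none lower (5.62% and 4.38% of all genes), and the lowest difference of the list was -0.21. Of 16 genes of Tgf-beta and Pdgf signals, 4 were higher and Tgfbr1 lower (-0.32), where 14.8% and 12.2% of all genes were, with a median of 0.04. Tgfb1 averaged 0.60, Smad7 0.38 and Tgfb3 0.30, and Smad7 missed the test when the median over its probe sets was used (0.10, adjusted p = 0.398).

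**Figure D4:**
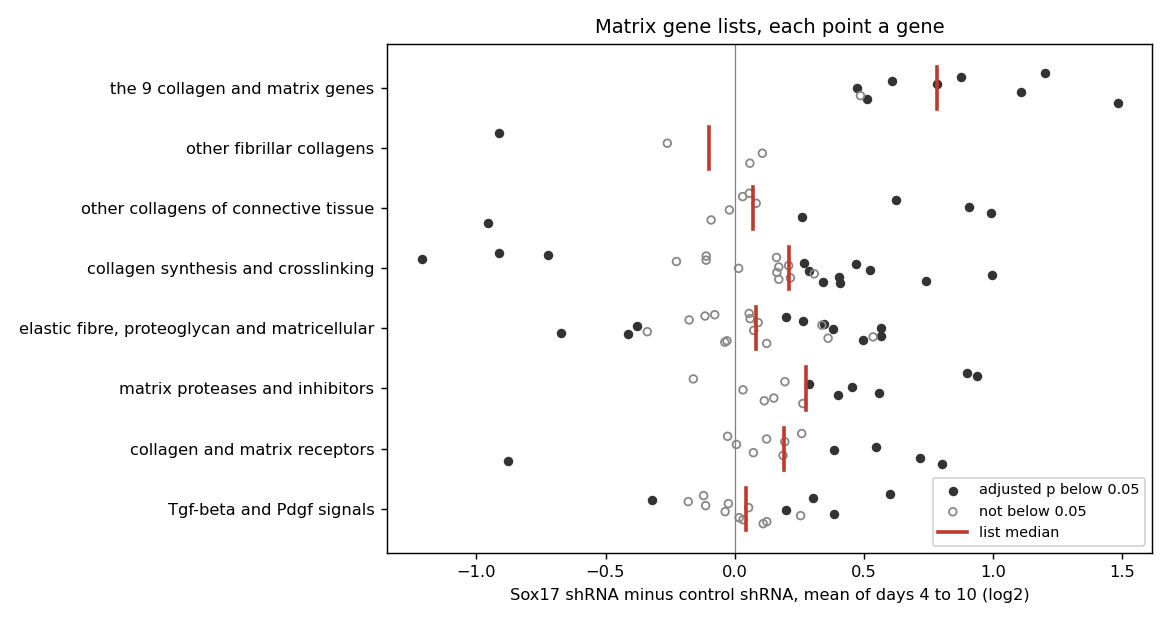
Difference of Sox17 shRNA minus control cultures averaged over days 4 to 10 (log2, 10 arrays per arm), each point a gene, in rows by gene list, filled where the limma adjusted p is below 0.05, with a red bar at the list median. The 9 collagen and matrix genes lie between 0.47 and 1.48, while each of the other lists drawn holds genes on both sides of 0.

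Markers of cell types were read beside these results. Of 15 mesenchyme and fibroblast genes tested, 5 were higher and 4 lower on average over days 4 to 10 (14.8% and 12.2% of all genes), with a median of -0.09. Averaged over days 6, 8 and 10, a choice made after seeing the data, 8 were higher (11.3% of all genes), with a median of 0.585. On that average 2 were lower, a direction whose share over all genes was not counted. At day 10, where 5.62% of all genes were higher and 4.38% lower, 3 were higher and none lower (Twist2 by 1.22, and Wt1 by 1.75 and S100a4 by 1.42, both named after their values were seen), with a median of 0.71. The log2 of the list's summed level at day 10 was 13.05 to 13.36 in Sox17 shRNA cultures and 12.65 to 12.67 in controls, and at day 5 the ranges were 11.59 to 12.16 and 11.83 to 12. Of 7 smooth muscle genes, Tagln was higher on average (1.07), and Myocd (-1.60) and Des were lower. At day 5, 1 of the 7 was higher (6.15% of all genes) and none lower, and the highest difference was 3.1. By day 10 none was higher and 1 was lower, and the highest difference was 0.56. The summed smooth muscle level was 13.72 to 14.21 at day 10 against 13.50 to 13.54. Of the bone and cartilage list 4 of 10 genes passed the filter on low values, with a summed level at day 10 of 8.11 to 8.16 against 8.27 to 8.28.

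Heart muscle genes moved the other way in the same cultures. All 10 were lower on average over days 4 to 10 (12.2% of all genes), with a median of -2.41. Their summed level at day 10 was 11.52 to 11.63 in Sox17 shRNA cultures and 14.61 on both control arrays. Myh6, a myosin of beating muscle, read 6.94 and 7.29 against 11.15 and 11.16. Of 12 genes of visceral and parietal endoderm 9 were lower and none higher (12.2% and 14.8% of all genes), with summed levels of 14.06 to 14.14 against 15.05 to 15.06 at day 10. Among 9 endothelial genes 1 was lower (Emcn, -0.70), where 12.2% of all genes were, with 9.98 to 10.76 against 10.48 to 10.51 at day 10. Whether these marker levels reflect a shift in cell make-up, and what part it would have in the matrix differences, was not tested.

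**Figure D5:**
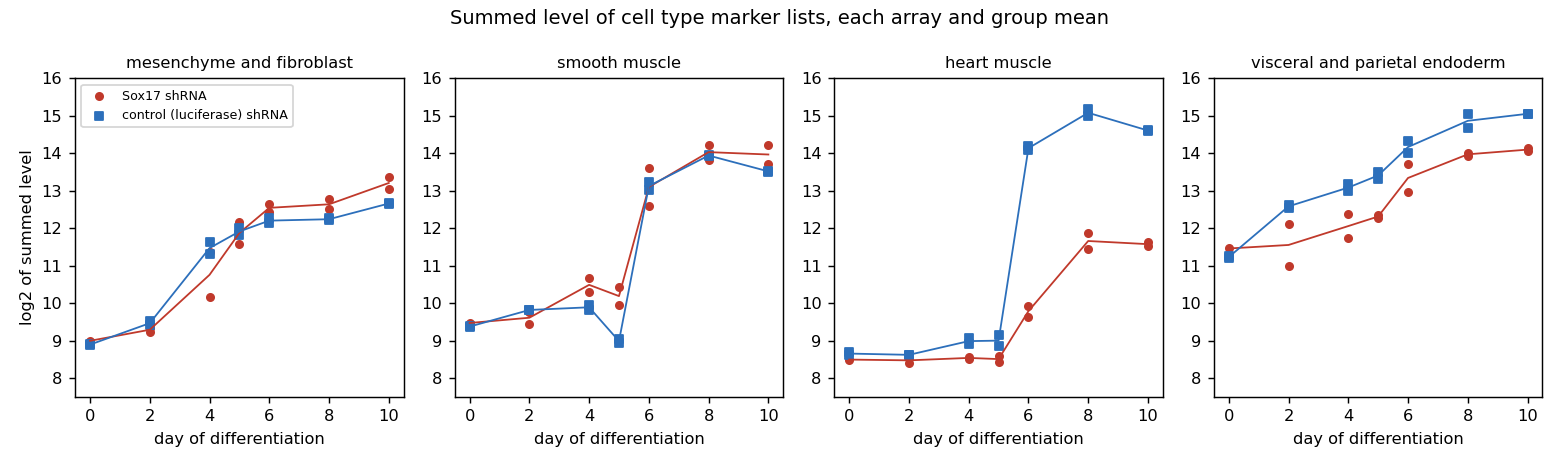
Log2 of the summed level of 4 marker lists against day, each array a point (Sox17 shRNA red, control blue) with lines through group means. At day 10 mesenchyme is at 13.05 to 13.36 with Sox17 shRNA against 12.65 to 12.67 in controls, and heart muscle at 11.52 to 11.63 against 14.61.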

How the data were processed

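RNA of 27 cultures was hybridised to Affymetrix mouse arrays, and the deposited values are log2 expression levels made by the authors with RMA, per the submitters' processing notes; the RMA version is not given in the sources used here. Of 45101 probe sets, 34958 carry 1 symbol in the platform annotation, 932 several and 9211 are not listed there. Probe sets with 1 symbol and above the median of all values (5.531) on at least 2 arrays were kept (23536), and the one with the highest mean over 27 arrays stood for its gene, which left 13297 genes. A limma 3.58.1 fit (R 4.3.3) with 14 groups of arm and day (13 residual degrees of freedom) and an intensity trend gave differences, standard errors (SE) and Benjamini-Hochberg adjusted p-values over all genes, called at 0.05. Every p in the text is from such a fit. The day 0 comparison borrows its spread from the other groups.

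The 9 genes, the gene lists, the rule for named genes and the tests were chosen with earlier results of these data known. Named were the 9 genes, Sox17, up to 4 genes of each pathway list and 2 of each cell type list with the largest average difference over days 4 to 10, and the 10 genes most alike in course. Cell type levels are the log2 of the sum of linear values over a list. On simulated data for day 10 in 13297 genes, 91% of 2-fold and 98% of 4-fold changes were recovered with 6 false calls. The simulated noise was independent between arrays and had the same spread in every group. Among the 9 genes the median gap between replicates at day 10 was 0.206 with Sox17 shRNA and 0.044 in controls, so these rates may not carry over. Replicate numbers were not taken to pair cultures, since the labels tie no number to a shared culture. Same-number correlations of deviations ranged from 0.0986 to 0.22 by day, except for 0.683 at day 4. On that day the bioB signal was high in replicate 1 and low in replicate 2 in both arms, and the chosen fit leaves this shared shift in its error. Alternatives were another filter or none, the median over probe sets, other probe sets, renormalization, no trend, array weights, a bioB term, fewer days, a replicate block and leaving out arrays.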

Additional observations from a re-analysis of the deposited data

Results flagged for a closer look

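A group of results stood out because the difference between Sox17 shRNA and control cultures itself changed over the days. The moderated F statistic over days 4 to 10 was 11.3 for Col1a1, 7.41 for Col1a2, 7.85 for Col5a2, 21.2 for Fbln2, 17 for Dcn and 15.9 for Pdgfrl, with limma adjusted p-values of 0.00553, 0.0284, 0.0237, 0.000234, 0.000737 and 0.00104. By second probe sets F was 6.58 for Col1a1 and 6.64 for Col1a2, which missed the test (adjusted p = 0.0554 and 0.0535). For Col5a2 it was 8.48 (adjusted p = 0.0218). Between days 5 and 10 the log2 difference changed by 2.45 for Dcn, 1.72 for Col1a2, 1.38 for Col5a2 and -1.28 for Pdgfrl. Dcn and Pdgfrl thus moved in opposite ways over the same days.

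For 6 of the 9 genes, Fbln2, Col5a2 and Dcn of the preceding group among them, both Sox17 shRNA arrays lay below both control arrays on some day and above them on others. Fbln2 and Col5a1 had 1 such lower day and 4 higher days each, Col3a1 and Postn 1 lower and 3 higher, and Col5a2 and Dcn 1 lower and 2 higher. Over all genes, both Sox17 shRNA arrays were lower for 23.6% at day 2, 14.7% at day 4 and 24.6% at day 5, so 1 lower day is common. They were higher for 18.6% (day 4) to 33.7% (day 10) of all genes on single days from day 2 on. The share of all genes with both a lower day and a higher day was not counted, so the 6 of 9 genes have no background beside them. The difference between those days was not tested by this count.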

How the results depend on the processing

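Counts below are of the 9 genes called, or of all genes called, with the value of the chosen fit in parentheses. With array weights all-gene counts were 1242 (251), 821 (338) and 10 (684) for the differences of days 0, 2 and 4, 1063 (641) and 2866 (1330) for days 8 and 10, 9077 for the control rise from day 5 to 10 (5679) and 1136 for the change in difference (602). With a term for the bioB signal they were 536, 583 and 1103 for days 0, 2 and 4, 2615 for Sox17 shRNA day 5 minus day 2 (6276), 3894 for control day 5 minus day 2 (6918) and 953 for the change in difference. With arrays of days 4 to 10 only, they were 359 at day 4 and 816 at day 5 (1249), and 2 of the 9 genes were called at day 5 (4). At day 6, 5 of the 9 (3) were called with the median over probe sets, with array weights and with a replicate block. For Sox17 shRNA day 5 minus day 2, the bioB term left 2 of the 9 (5), and for control day 5 minus day 2 the count was 0 with the median over probe sets, 3 with array weights and 0 with the bioB term (1). The replicate block, which pairs arrays by a number only, gave an adjusted p of 0.0367 for Col1a2 and 0.0456 for Col5a1 at day 6. The other Fbln2 probe set turned the rise from day 5 to 10 to -0.25 with Sox17 shRNA and -0.059 in controls, and the other Dcn probe set gave -0.061 in controls, all from probe sets under the median on all arrays. Leaving out 1 array at a time, calls among the 9 ranged from 2 to 3 at day 5, 3 to 6 at day 6 and 3 to 4 at day 8, from 3 to 5 for Sox17 shRNA day 5 minus day 2, 0 to 0 for control day 5 minus day 2, 2 to 5 for the change in difference and 4 to 8 for the F test, and were 7 at day 10 in every such fit. All-gene counts ranged from 76 to 152 (day 0), 68 to 152 (day 2), 216 to 1217 (day 4), 315 to 1710 (day 5), 229 to 652 (day 6), 309 to 704 (day 8), 540 to 1007 (day 10), 3631 to 4599 for the control rise, 271 to 1135 for the change in difference and 400 to 989 for the F test. The causes of these shifts were not tested. Of single-gene results, 1807 kept direction and side of the threshold when an array was left out, 57 lost the call and 16 gained it. Under the other settings 1772 kept both, 44 lost it, 26 gained it and 3 reversed.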

Other observations

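Small leucine-rich proteoglycans, the family of decorin, did not share a direction at day 10 (these genes were named after their values were seen, and each passed the limma test). Lum differed by 1.70 and Ogn by 1.60 in Sox17 shRNA minus control cultures, and Bgn, the closest relative of decorin, by -2.09. Col6a1 and Col6a2, chains of the beaded filament collagen that runs beside fibrils, differed by 0.75 and 0.87. Efemp1, an elastic fibre glycoprotein, differed by -0.70 and Emilin1, another, by 1.20.

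Of 10 pluripotency genes, 4 were higher and 1 lower in Sox17 shRNA than in control cultures on average over days 4 to 10. Their median was 0.21 on the log2 scale, and 14.8% of all genes were higher and 12.2% lower. Among them Zfp42 averaged 1.92 and Klf4 -1.51.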
